A study of Mus musculus with 7 samples.

Results

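Replication-dependent histone genes were followed in hematopoietic stem cells (HSCs) of mouse bone marrow, the cells from which all blood lineages arise. Their rows were chosen by name: every row whose identifier belongs, in GENCODE mouse release M21, to a symbol that starts with Hist1h, Hist2h, Hist3h or Hist4h, without the pseudogenes marked by "-ps". Of 55855 rows in the table, 69 met this rule, and the 52 of them with a value above 0 in at least 1 library are described here. They comprise 5 H1, 10 H2A, 16 H2B, 10 H3 and 11 H4 genes. The other 17 rows were at 0 in every library. Of these, 2 (Hist1h2aj and Hist1h2al) are annotated as pseudogenes although their symbols do not carry that mark.

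The 7 libraries are 4 from HSCs deleted for Fth1, which encodes the ferritin heavy chain that oxidises stored iron, and 3 from HSCs of Fth1fl/fl mice, whose Fth1 alleles carry loxP sites (the control). All mice were 2 months old, and the series places the deletion in the hematopoietic system. The Cre driver, the sort gate and the mapping of libraries to single mice are not given in the sources used here, so p-values measure spread between these libraries, which may be technical. Polyadenylated RNA was sequenced as read pairs, and values are FPKM (fragments scaled to gene length and to the fragments counted in the library).

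Nucleosomes, the spools on which DNA is wound, are built from H2A, H2B, H3 and H4, while H1 binds the DNA between them. Cells that copy their DNA make most of these proteins from clustered genes without introns. Their messenger RNAs (mRNAs) do not end in a polyA tail but in a conserved stem-loop bound by the protein Slbp, and cleavage just past the stem-loop needs the U7 small nuclear RNA. Npat, together with Casp8ap2 (also called FLASH), concentrates transcription and processing of these genes in histone locus bodies. Some of these genes also yield transcripts that run past the stem-loop and gain a polyA tail, mainly in differentiating cells. The libraries here were made from polyadenylated RNA.

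The stem-loops are shown first because they mark the mRNA end that carries no polyA tail. The letters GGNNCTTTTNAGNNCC (16 bases, transcript strand only) were found in the annotated transcripts of 37 of the 52 genes, against 89 of 55450 genes in M21 (0.161%). In the lines that follow, capitals mark the 16 matching bases, and the lower-case letters are their neighbours in the GRCm38 transcript.
Hist1h4i: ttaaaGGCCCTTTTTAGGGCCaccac
Hist1h4m: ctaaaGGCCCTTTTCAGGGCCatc
Hist1h4j: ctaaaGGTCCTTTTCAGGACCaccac
Hist1h2bb: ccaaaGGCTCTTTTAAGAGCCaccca
Hist1h2ao: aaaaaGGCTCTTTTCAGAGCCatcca
Hist1h1c: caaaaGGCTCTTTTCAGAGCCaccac
Hist1h3e: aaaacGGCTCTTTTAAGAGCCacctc
These lie at chr13:22040961-22040986 (minus strand), chr13:21812124-21812147 (plus), chr13:21735432-21735457 (plus), chr13:23747198-23747223 (plus), chr13:21810893-21810918 (plus), chr13:23739507-23739532 (plus) and chr13:23561898-23561923 (minus), in that order.

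The stem differed by histone type. All 10 H4 stem-loops differed from those of the other types in the stem, with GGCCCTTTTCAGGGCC in 7 genes, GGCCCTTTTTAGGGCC in 2 (Hist1h4i and Hist2h4) and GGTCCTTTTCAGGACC in Hist1h4j. The commonest form, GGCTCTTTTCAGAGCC, was shared by 22 genes of the H1, H2A, H2B and H3 types, and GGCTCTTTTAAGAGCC by 2 H2B and 3 H3 genes. The annotated transcripts ran over 50 bases past the stem-loop in 22 genes and ended within 50 bases of it in 15. In 8 genes the annotated transcript held the coding part alone, and in 7 the letters were not found. Hist1h2bc and Hist2h2be, a pair of H2B genes, belong to the last group.

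The genes lie in 4 clusters of GRCm38: 46 of 56 rows of the Hist1 cluster on chromosome 13 were above 0 in some library, 3 of 10 of Hist2 on chromosome 3, 2 of 2 of Hist3 on chromosome 11, and Hist4h4 on chromosome 6. In 47 of the 52 the annotated gene has a single exon. Their coding sequences are close copies, and all 11 H4 genes encode 1 protein from 10 distinct coding sequences. The 10 H3 genes encode 2 proteins, the 10 H2A genes 4, the 16 H2B genes 9 and the 5 H1 genes 5. Reads that fit several copies may have been dropped or split by the counting, so the share of each gene's 50-base windows found in no other M21 gene is given where it is low. It had a median of 51.8% over the 52 genes (range 2.68% to 100%) and 24.1% over the 17 rows at 0.

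Promoters were compared because several of the genes described below share a start region. RefSeq promoters (GRCm38.p6, 250 bases before to 50 after the start, searched on both strands) were matched for 47 of the 52 genes. CCAAT, the box bound by NF-Y, was in all 37 matched H1, H2A, H2B and H3 promoters but in 2 of 10 H4 promoters, against 37.9% of all 27025 promoters. TATAAA was in 26 of 47 (55.3%), against 14.2% of all. The octamer ATTTGCAT, read by Oct-1 (Pou2f1), was in 4 of 10 H2A and 4 of 14 H2B promoters and in none of the H1, H3 or H4 promoters, against 1.75% of all. The 250 bases before the start are given for the H4 genes Hist1h4i and Hist1h4m, the pair with the 2 smallest p-values below, and for the H2B gene Hist1h2bb, with capitals on the matches to these motifs on either strand.
Hist1h4i: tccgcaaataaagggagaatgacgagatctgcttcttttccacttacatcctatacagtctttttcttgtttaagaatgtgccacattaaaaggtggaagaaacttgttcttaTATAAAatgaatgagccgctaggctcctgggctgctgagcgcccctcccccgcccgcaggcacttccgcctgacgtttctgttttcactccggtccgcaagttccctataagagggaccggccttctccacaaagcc
Hist1h4m: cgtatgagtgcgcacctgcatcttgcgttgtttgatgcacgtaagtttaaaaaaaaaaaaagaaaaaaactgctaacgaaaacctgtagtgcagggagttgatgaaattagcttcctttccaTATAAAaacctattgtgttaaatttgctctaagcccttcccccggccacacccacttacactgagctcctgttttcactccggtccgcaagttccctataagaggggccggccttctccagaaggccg
Hist1h2bb: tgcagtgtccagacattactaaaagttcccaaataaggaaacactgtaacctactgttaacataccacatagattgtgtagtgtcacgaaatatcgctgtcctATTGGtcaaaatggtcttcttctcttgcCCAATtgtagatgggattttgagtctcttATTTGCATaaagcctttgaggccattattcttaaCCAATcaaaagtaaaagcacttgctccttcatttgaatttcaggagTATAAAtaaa
They lie at chr13:22041363-22041612 (minus strand), chr13:21811496-21811745 (plus) and chr13:23746484-23746733 (plus). Hist1h4i and Hist1h4m shared an unbroken run of 38 bases that begins 59 and 60 bases before their starts. The run was also in the promoter of Hist1h4n, a near copy of Hist1h4m (log2 difference 0.92, SE 0.94, limma adjusted p = 0.770). It holds GGTCCG, a string picked after these promoters were read, which was in all 10 matched H4 promoters, 1 of 14 H2B, 1 of 8 H3 and none of the H1 or H2A promoters, against 8.39% of all promoters. A match describes letters, not a bound site.

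Read back from the values, 12807435 to 15453727 read pairs were counted in the Fth1-deleted libraries and 12059105 to 15046748 in the control libraries. Fth1 had 202, 333, 358 and 114 FPKM in Fth1-deleted libraries, against 552, 659 and 638 FPKM in control libraries, a log2 difference of -1.42 (SE 0.33, limma adjusted p = 0.193). All 11 HSC marker genes on the list were detected. Of these, 10 lay below 0 (median log2 difference -0.61). Their summed FPKM was 639 to 842 in Fth1-deleted libraries and 938 to 1570 in control libraries, without overlap, and the part of this in the histone values was not tested. Genes averaging 1 FPKM or more over the 7 libraries numbered 13948, of which 4 (0.0287%) rose and 4 (0.0287%) fell. Ribosomal RNA, which has no polyA tail, took 1.19%, 1.33%, 1.36% and 1.26% of FPKM in Fth1-deleted libraries and 0.0366%, 1.05% and 0.0145% in control libraries (exact two-sided permutation p = 0.0286, the smallest this design allows). Control 2 stood near the Fth1-deleted libraries in this. It was the lowest library in Rn7sk, another RNA without a tail, at 86.3 FPKM against 303 to 529 FPKM in the other libraries. It was also the lowest in Scarna2 (6.74 FPKM against 12.6 to 32.3 FPKM). In Malat1 (694 FPKM against 74.8 to 385 FPKM) and Neat1 (70.3 FPKM against 11.3 to 46.4 FPKM) control 2 was the highest. All 4 are on the list of RNAs known to lack a polyA tail. Reads of Y-linked genes were present in Fth1-deleted 1, 2 and 3 and in control 2 and at 0 in the others.

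Together, histone transcripts were a small part of every library and varied widely within both groups. The summed FPKM of the 52 genes was 319, 230, 164 and 318 in Fth1-deleted libraries and 284, 64.1 and 134 in control libraries, a mean of 258 ± 75.2 (SD, n = 4) against 161 ± 112 (SD, n = 3). The groups overlapped, since control 1 lay above Fth1-deleted 2 and 3. The ratio of the means was 1.60, but it was 2.60 without control 1. These sums stood for 0.0253%, 0.0208%, 0.0136% and 0.0243% of all counted read pairs in Fth1-deleted libraries and 0.0245%, 0.00810% and 0.0107% in control libraries. In bulk RNA, more cells that copy DNA and more histone RNA per cell cannot be told apart.

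**Figure D1:**
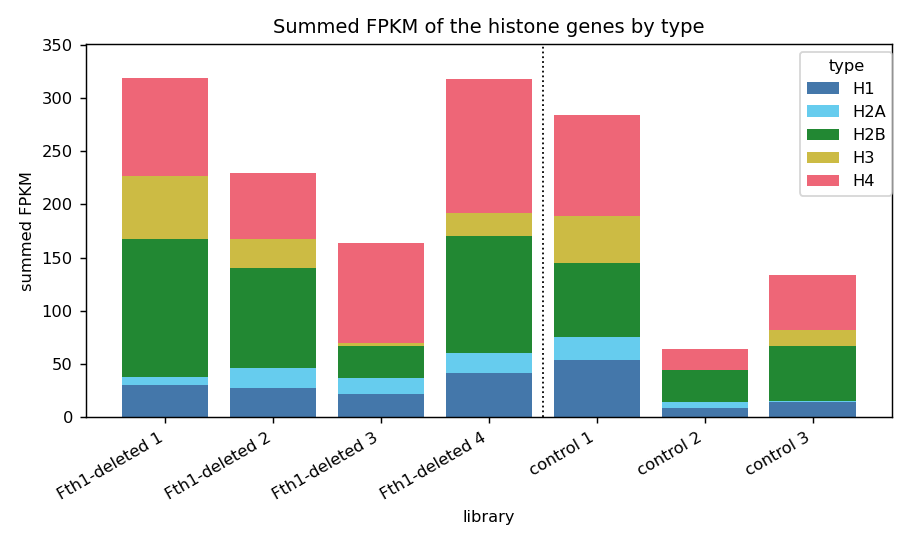
Summed FPKM of the 52 histone genes in each library, stacked by histone type, with the 4 Fth1-deleted libraries left of the dotted line and the 3 control libraries right of it. Totals run from 164 to 319 in Fth1-deleted libraries and from 64.1 to 284 in control libraries, and H3 is missing from control 2.

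H2B and H4 genes supplied most of the signal. H2B genes summed to 130, 94.2, 29.6 and 110 FPKM in Fth1-deleted libraries and to 69.4, 29.6 and 51.7 FPKM in control libraries. H4 genes summed to 92.3, 62.7, 93.8 and 126 FPKM in Fth1-deleted libraries and to 95.1, 19.9 and 51.6 FPKM in control libraries. H3 genes reached 59.3, 26.9, 3.49 and 21.7 FPKM in Fth1-deleted libraries and 43.8, 0 and 15.6 FPKM in control libraries. The groups overlapped in each of these types. H1 genes gave 21.4 to 41.9 FPKM in Fth1-deleted and 8.46 to 53.4 FPKM in control libraries, and H2A genes 7.66 to 18.6 and 0.707 to 22.5 FPKM in the same order.

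Which histone genes were seen changed from library to library. Of the 52 genes, 41, 30, 23 and 37 were above 0 in Fth1-deleted libraries and 33, 15 and 17 in control libraries. Only 6 were above 0 in all 7 libraries: Hist1h1c, Hist1h2bc, Hist1h2bq, Hist2h2be, Hist1h4i and Hist1h4m. Over the 364 values (52 genes in 7 libraries), 168 (46.2%) were 0, 44 stood for 1 to 19 read pairs and 152 for 20 or more. Within the Fth1-deleted group 29 genes, and within the control group 28 genes, had 0 in 1 library and at least 20 read pairs in another. No more than 670 read pairs fell on any of these genes in 1 library.

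The same was counted in genes of similar depth. Of the 34 histone genes that averaged 1 FPKM or more, 28 (82.4%) were at 0 in at least 1 library, against 23.9% of all tested genes. Among the 6294 other tested genes within the same range of mean read pairs (6.14 to 394), 46.9% were at 0 in at least 1 library. A 0 beside at least 20 read pairs in the same group was found in 26 of the 34 histone genes (76.5%) and in 45.5% of those other genes. The histone genes lay lower in that range, with a median of 39.2 read pairs against 105 for the other genes, and this difference was not adjusted for.

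**Figure D2:**
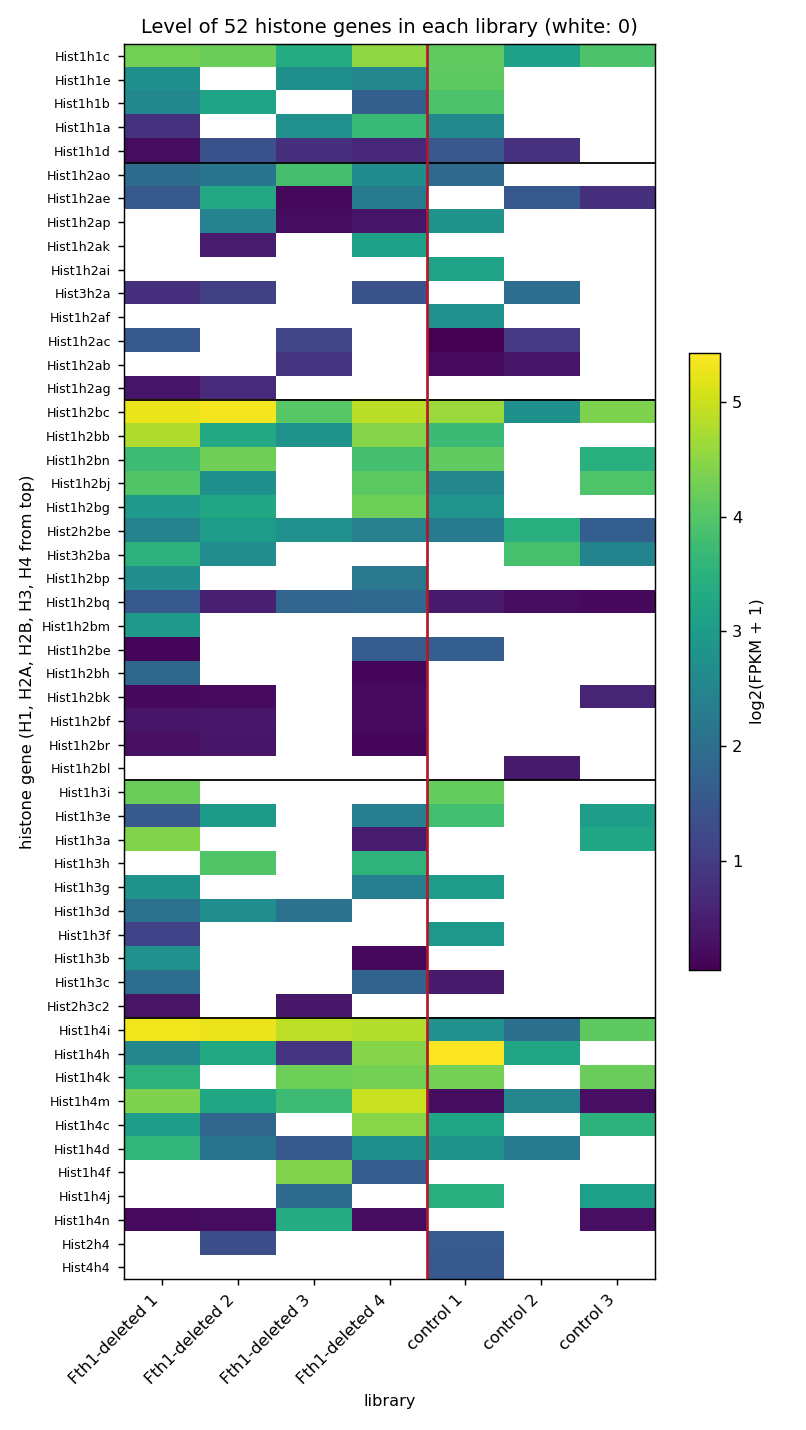
Level of each of the 52 histone genes (rows, by type from H1 at the top to H4, then by mean level) in the 4 Fth1-deleted libraries (left of the red line) and the 3 control libraries, as log2(FPKM + 1), with 0 in white. White cells make up 46.2% of the map and are scattered over both groups, and control 2 and 3 hold the fewest coloured cells (15 and 17).

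Detection was also counted by the annotated form of the transcript. Genes whose annotated transcript ends within 50 bases of the stem-loop were above 0 in 12, 10, 8 and 12 of 15 cases in Fth1-deleted libraries and in 7, 3 and 5 of 15 in control libraries, so these counts did not overlap between the groups. The counts of the other annotated forms did overlap. Over the whole table, 14882, 13991, 13907 and 14563 genes were above 0 in Fth1-deleted libraries and 13597, 13973 and 13320 in control libraries. Those counts overlapped only through Fth1-deleted 3 and control 2. The summed FPKM of the genes that end at the stem-loop did overlap, at 102, 41.0, 62.8 and 100 in Fth1-deleted libraries and 68.2, 13.3 and 23.5 in control libraries. Genes annotated past the stem-loop summed to 121, 100.5, 53.8 and 114 FPKM in Fth1-deleted libraries and to 96.5, 34.8 and 60.8 FPKM in control libraries, and these overlapped too. Control 2 had the fewest genes of the class that ends at the stem-loop above 0 (3), and control 1 the most of the control libraries (7). The same held over all 52 genes, with 15 in control 2 and 33 in control 1. The part of RNA without a tail in these values was not tested.

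None of the 52 genes passed the test, so none is said to have risen or fallen. In limma on log2(FPKM + 1), with Benjamini-Hochberg adjustment over 13948 genes and a threshold of 0.05, 0 of the 34 tested genes were called in either direction, beside 0.0287% of all tested genes in each. The smallest adjusted p was 0.185. At an unadjusted p under 0.05, 4 of 34 were higher in Fth1-deleted libraries, against 4.9% of all tested genes, and 0 were lower, against 4.93%. Limma-voom on the read pairs also called 0 of 34. The other 18 genes had a mean FPKM under 1 and were not tested. The filter separated close values, with Hist1h2ai at 1.13 and Hist1h3f at 1.11 just inside and Hist1h2bm at 0.953 and Hist3h2a at 0.923 just outside.

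The log2 difference was above 0 for 26 of the 34 and below 0 for 8, while 48.7% of all tested genes lay above 0. The filter took the mean of all 7 libraries, so it also kept genes seen in 1 group alone, whose direction was then fixed. Named for this, Hist1h2ak, Hist1h2bp, Hist1h3d, Hist1h3h and Hist1h4f averaged 0 FPKM in control libraries. Hist1h2ai averaged 0 FPKM in Fth1-deleted libraries. The counts of 26 and 8 are a description, not a test. The median log2 difference was 0.59 for the histone genes and -0.02 for all tested genes. The spread was wide, with a median SE of 0.95 for the histone genes, 0.65 for other tested genes up to the same mean FPKM and 0.43 for all tested genes. By type, 4 of 4 H1, 3 of 5 H2A, 8 of 9 H2B, 4 of 7 H3 and 7 of 9 H4 genes had a difference above 0. Every library of 1 group lay above every library of the other for 4 histone genes, Hist1h4i, Hist1h4m, Hist1h2ao and Hist1h2bq, each higher in Fth1-deleted libraries (4.1% of all tested genes did so), and for 0 in the other direction (5.55% of all).

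**Figure D3:**
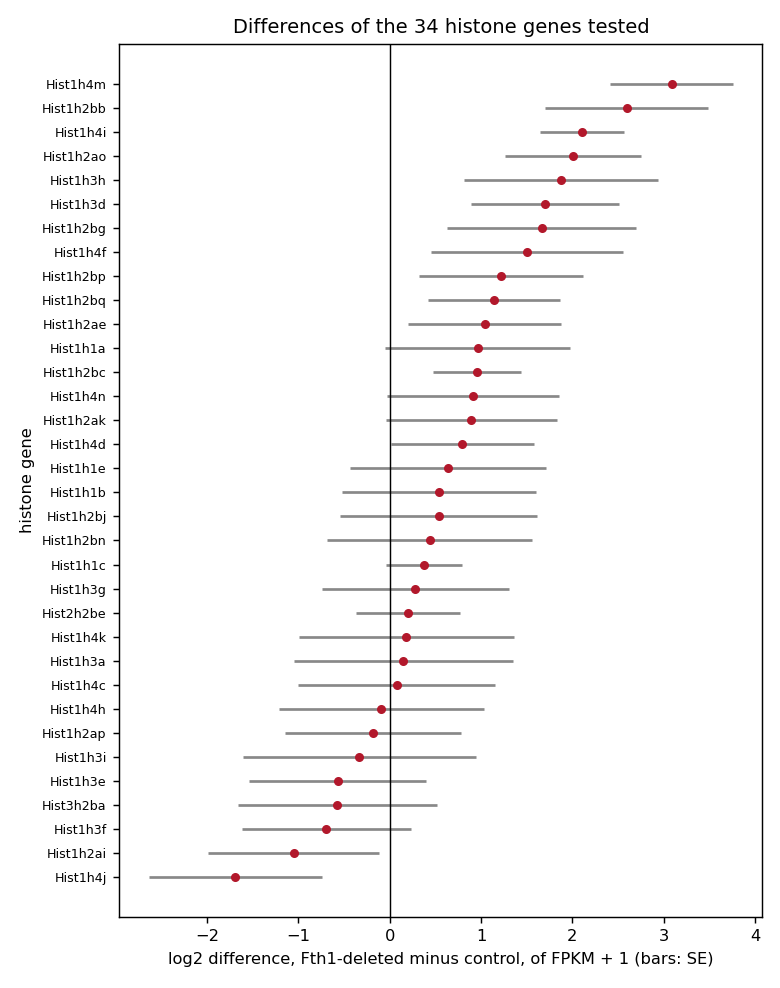
Log2 difference of FPKM + 1, Fth1-deleted minus control, for the 34 histone genes tested (points) with the SE from limma (bars), in order of size. Of the points, 26 lie above 0 and 8 below, from 3.09 for Hist1h4m to -1.69 for Hist1h4j, and none reached an adjusted p of 0.05.

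Among the H4 genes, the nucleosome core that pairs with H3, Hist1h4i had the smallest p. Its FPKM was 38.9, 37.6, 28.6 and 27.0 in Fth1-deleted libraries and 5.85, 3.11 and 15.97 in control libraries, from 437, 372, 266 and 290 read pairs against 59, 34 and 140. Every Fth1-deleted library lay above every control library, with means of 33.0 ± 6.11 (SD, n = 4) and 8.31 ± 6.78 FPKM (SD, n = 3). On the log2 scale this is a difference of 2.10 (SE 0.46), with an adjusted p of 0.185 in limma. The gene lies at chromosome 13, 22040636 to 22041362 on the minus strand, as a single exon whose annotated transcript runs 330 bases past the stem-loop, and 71.1% of its windows are found in no other gene.

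Hist1h4m had 19.8, 8.58, 12.2 and 30.6 FPKM in Fth1-deleted libraries and 0.179, 4.63 and 0.206 FPKM in control libraries. The groups did not overlap, and the log2 difference came to 3.09, with an SE of 0.67 and an adjusted p of 0.185 in limma. With the ribosomal RNA share as covariate the difference was 1.27. That share did not overlap between the groups, and only control 2 (1.05%) lay near the Fth1-deleted libraries (1.19% to 1.36%). In control 1 and 3 the FPKM of Hist1h4m stood for 1 read pair each. Its transcript shares 89.8% of its windows with the neighbouring Hist1h4n, so that counts of the pair cannot be told apart with certainty. Their summed FPKM was 19.95, 8.76, 21.5 and 30.7 in Fth1-deleted libraries and 0.179, 4.63 and 0.399 in control libraries, which did not overlap either.

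Other H4 genes went different ways. Hist1h4h had 4.82, 8.91, 0.831 and 21.0 FPKM in Fth1-deleted libraries and 42.1, 8.34 and 0 FPKM in control libraries, where control 1 held the highest value of any histone gene in any library. Hist1h4k had 10.4, 0, 18.02 and 18.6 FPKM in Fth1-deleted libraries and 18.7, 0 and 17.3 FPKM in control libraries. Of the windows of Hist1h4k, 28.5% are its own. Both genes overlapped between the groups (log2 differences -0.09, SE 1.12, and 0.18, SE 1.18). Hist1h4j, with the lowest difference of all (-1.69, SE 0.95, limma adjusted p = 0.603), had 0, 0, 2.82 and 0 FPKM in Fth1-deleted libraries and 9.77, 0 and 7.50 FPKM in control libraries, and control 2 shared the 0. Hist4h4, the gene of the chromosome 6 cluster, was seen in control 1 alone, at 1.86 FPKM from 74 read pairs, and was listed at 0 in the other 6 libraries.

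**Figure D4:**
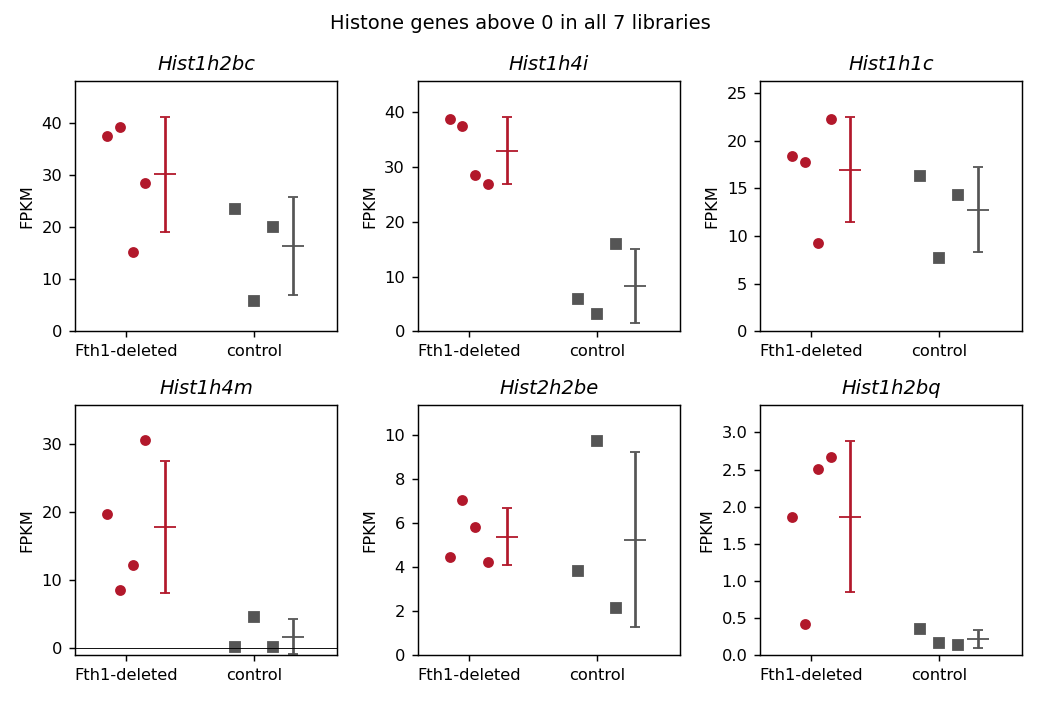
FPKM of the 6 histone genes above 0 in all 7 libraries, 1 panel each, with Fth1-deleted libraries (red circles, n = 4) left of control libraries (grey squares, n = 3) and the mean ± SD beside each group. The groups do not overlap for Hist1h4i, Hist1h4m and Hist1h2bq, and overlap for Hist1h2bc, Hist1h1c and Hist2h2be.

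Among the H2B genes, Hist1h2bc had the highest mean level of all 52. Its FPKM was 37.5, 39.2, 15.3 and 28.5 in Fth1-deleted libraries and 23.6, 5.75 and 19.9 in control libraries. Fth1-deleted 3 lay among the control libraries (log2 difference 0.95, SE 0.48, limma adjusted p = 0.556), and without control 2 the difference was 0.37. Hist1h2bb had 26.5, 8.82, 5.99 and 20.9 FPKM in Fth1-deleted libraries and 12.2, 0 and 0 FPKM in control libraries. It was seen in every Fth1-deleted library but in control 1 alone (log2 difference 2.59, SE 0.89, limma adjusted p = 0.390). Hist1h2bn, with 13.6% of its windows its own, had 12.4, 18.3, 0 and 13.3 FPKM in Fth1-deleted libraries and 16.3, 0 and 10.01 FPKM in control libraries. The groups overlapped there as well (log2 difference 0.44, SE 1.12).

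Hist2h2be, an H2B gene of the chromosome 3 cluster whose windows are all its own, was seen in all 7 libraries. Its FPKM was 4.45, 7.03, 5.81 and 4.23 in Fth1-deleted libraries and 3.82, 9.74 and 2.15 in control libraries, with control 2 the highest (log2 difference 0.20, SE 0.57). Hist3h2ba had 10.3, 5.38, 0 and 0 FPKM in Fth1-deleted libraries and 0, 13.6 and 4.59 FPKM in control libraries (log2 difference -0.57, SE 1.09). Hist1h2bq, named after its values were seen, had 1.86, 0.422, 2.50 and 2.66 FPKM in Fth1-deleted libraries and 0.355, 0.164 and 0.136 FPKM in control libraries. Its groups did not overlap, but Fth1-deleted 2 held 7 read pairs against 6 in control 1. The log2 difference of Hist1h2bq was 1.15 (SE 0.72, limma adjusted p = 0.640), and 97.3% of its windows are shared with Hist1h2br. Summed, these copies gave 2.06, 0.710, 2.50 and 2.77 FPKM in Fth1-deleted libraries and 0.355, 0.164 and 0.136 FPKM in control libraries, without overlap.

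H2A genes were low. Hist1h2ao, which starts 268 bases from Hist1h2bq on the opposite strand, had 2.83, 3.37, 13.3 and 5.21 FPKM in Fth1-deleted libraries and 2.70, 0 and 0 FPKM in control libraries. The groups did not overlap, by a margin of 21 read pairs in Fth1-deleted 1 against 18 in control 1 (log2 difference 2.01, SE 0.74, limma adjusted p = 0.430). Its near copy Hist1h2ap, which shares 93.1% of its windows with Hist1h2ao, had 0, 4.42, 0.162 and 0.280 FPKM in Fth1-deleted libraries and 5.98, 0 and 0 FPKM in control libraries. Summed, these copies gave 2.83, 7.78, 13.5 and 5.49 FPKM in Fth1-deleted libraries and 8.68, 0 and 0 FPKM in control libraries, and the sum overlapped between the groups.

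Hist1h2ae had 1.93, 8.76, 0.111 and 3.74 FPKM in Fth1-deleted libraries and 0, 1.89 and 0.707 FPKM in control libraries (log2 difference 1.04, SE 0.84). Hist1h2ai was listed at 0 in all 4 Fth1-deleted libraries and in control 2 and 3, and at 7.88 FPKM in control 1 (43 read pairs), with 9.88% of its windows its own. Hist3h2a had 0.724, 1.09, 0 and 1.67 FPKM in Fth1-deleted libraries and 0, 2.97 and 0 FPKM in control libraries. Hist2h2aa1, an H2A gene whose windows all recur in other genes, was listed at 0 in every library. Among the H2A and H2B rows, 13 pairs start within 500 bases of each other on opposite strands. Both partners were among the 52 genes in 7 of these pairs. The pair of Hist1h2aj and Hist1h2bm holds an annotated pseudogene, Hist1h2aj.

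H3 genes were the most scattered type, seen in a median of 2.5 libraries, and none was above 0 in control 2. No H3 or H2A gene was above 0 in all 7 libraries. Hist1h3i had 17.6, 0, 0 and 0 FPKM in Fth1-deleted libraries and 16.8, 0 and 0 FPKM in control libraries, so that 112 and 96 read pairs stood beside 5 libraries with none. Only 12.4% of its windows are its own and 79.3% are shared with Hist1h3h, named after its values were seen, which held 82 and 65 read pairs in Fth1-deleted 2 and 4 and none elsewhere. Counts of these near copies cannot be told apart with certainty. Hist1h3e, with 26.6% of its windows its own, had 1.94, 6.85, 0 and 4.12 FPKM in Fth1-deleted libraries and 13.01, 0 and 7.34 FPKM in control libraries. Hist1h3a had 20.4, 0, 0 and 0.380 FPKM in Fth1-deleted libraries and 0, 0 and 8.23 FPKM in control libraries. Hist1h3f had 1.18, 0, 0 and 0 FPKM in Fth1-deleted libraries and 6.57, 0 and 0 FPKM in control libraries. The groups overlapped for each of these 4, with log2 differences of -0.33, -0.57, 0.15 and -0.69 and SEs of 0.92 to 1.28.

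Among the linker histones, Hist1h1c was the steadiest. Its FPKM was 18.5, 17.7, 9.26 and 22.3 in Fth1-deleted libraries and 16.3, 7.71 and 14.3 in control libraries, with overlapping groups (log2 difference 0.38, SE 0.42, limma adjusted p = 0.786), and without control 2 the difference was 0.0778. Hist1h1e had 5.70, 0, 5.62 and 4.80 FPKM in Fth1-deleted libraries and 15.97, 0 and 0 FPKM in control libraries. Hist1h1b had 4.88, 8.10, 0 and 2.18 FPKM in Fth1-deleted libraries and 14.3, 0 and 0 FPKM in control libraries. In both, control 1 was the highest library while control 2 and 3 were at 0. The testis genes Hist1h1t, Hist1h2ba and Hist1h2aa were listed at 0 in all 7 libraries, with 61.8% to 100% of their windows their own.

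Sequence shared with other genes did not set apart every row at 0. Of the 17 rows at 0, 5 had no window of their own, 8 more had under 50% and 4 had at least 50%, among them the 3 testis genes. Of the 52 genes above 0, 29 had at least 50%. The 6 genes seen in all 7 libraries ran from 2.68% (Hist1h2bq) to 100% (Hist2h2be).

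**Figure D5:**
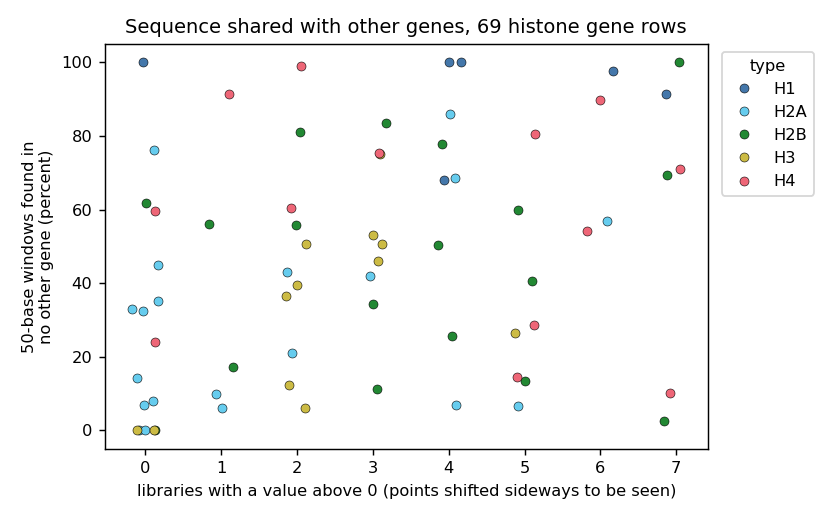
Share of 50-base transcript windows found in no other gene (percent) against the number of libraries with a value above 0, for all 69 histone gene rows, coloured by type. Rows at 0 in every library have a median of 24.1% and the 52 genes above 0 a median of 51.8%, with both low and high shares at 7 libraries.

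The machinery around these genes was measured in the same libraries. Slbp had 117, 63.9, 79.7 and 78.6 FPKM in Fth1-deleted libraries and 68.4, 69.8 and 44.2 FPKM in control libraries (log2 difference 0.47, SE 0.26, limma adjusted p = 0.596). Npat (0.14, SE 0.42, limma adjusted p = 0.930) and Casp8ap2 (0.23, SE 0.36, limma adjusted p = 0.853) also overlapped between groups. Of 23 tested genes of histone mRNA transcription and 3′ end processing, 0 rose and 0 fell, 16 lay above 0, and the median log2 difference was 0.19. Of 21 histone chaperones, which carry histones to DNA, 0 passed in either direction and 16 lay above 0 (median 0.18).

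Replication-independent variants, whose mRNAs are mostly polyadenylated, had far higher values in these libraries of polyadenylated RNA. Since most mRNAs of the replication-dependent genes have no polyA tail, these values do not compare amounts in the cell. The 12 tested of 13 variants summed with the untested member to 2495 to 3095 FPKM in Fth1-deleted libraries and 1744 to 2199 FPKM in control libraries, without overlap. None of the 12 passed the test, 11 lay above 0 (median log2 difference 0.54), and 4 had groups that did not overlap, all higher in Fth1-deleted libraries, beside 4.1% higher and 5.55% lower among all tested genes. Of 41 S phase and DNA replication genes, 0 passed, 38 lay above 0 (median 0.40) and 7 did not overlap, all higher in Fth1-deleted libraries, beside the same 4.1% and 5.55%. Their summed FPKM was 4433 to 4631 in Fth1-deleted libraries and 2790 to 4054 in control libraries. Of 30 G2 and M phase genes, 0 passed, 28 lay above 0 (median 0.58) and 7 did not overlap, all higher in Fth1-deleted libraries, again beside 4.1% and 5.55%. Their summed FPKM overlapped, at 1654 to 1927 in Fth1-deleted libraries and 896 to 1786 in control libraries.

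Markers of other blood cells were summed in the same libraries, and their part in the histone values was not tested. The 12 neutrophil and myeloid progenitor markers summed to 192 to 590 FPKM in Fth1-deleted libraries and 156 to 360 FPKM in control libraries, with 8 of 9 tested above 0 and Ly6g and Fcnb at 0 throughout. The 9 macrophage markers summed to 64.7 to 173 FPKM and 22.9 to 54.2 FPKM in the same order, and 8 of 9 lay above 0. The 7 mast cell and basophil markers summed to 17.3 to 44.4 FPKM in Fth1-deleted libraries and 0 to 12.9 FPKM in control libraries, with Mcpt8 and Prss34 at 0 throughout. The 12 B cell markers summed to 24.2 to 88.9 FPKM in Fth1-deleted libraries and 16.5 to 26.9 FPKM in control libraries, and all 9 tested lay above 0. None of the tested markers of these 4 types passed the test. The 12 erythroid markers (1001 to 1803 FPKM in Fth1-deleted, 1020 to 1532 FPKM in control libraries) overlapped. The 8 megakaryocyte markers (973 to 1147 and 667 to 972 FPKM) did not, and the 10 T and NK cell markers (101 to 154 and 31.3 to 119 FPKM) did, with 4 of 7 and 2 of 4 tested above 0, and Gp1bb and Cd3e at 0 throughout.

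Most of the listed RNAs known to lack a polyA tail were unseen, but a few had high values. Of 20 listed, 19 were matched to 20 rows, since Rmrp has 2. Of these rows, 16 were at 0 in all 7 libraries, U7 (Rnu7) among them. The 4 tested were Rn7sk, Malat1, Neat1 and Scarna2, and 0 of them rose or fell (median log2 difference -0.06). The list summed to 477 to 728 FPKM in Fth1-deleted libraries and 459 to 960 FPKM in control libraries, and these sums overlapped.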

How the data were processed

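Per the labels and the series text, the authors aligned paired reads to GRCm38 with HISAT2 2.0.4, counted them per gene with HTSeq 0.9.1 and deposited FPKM from counts and gene length. The strand setting, multimapping rule and annotation release are not given in the sources used here. Identifiers (55394 of 55855) were matched to GENCODE M21. FPKM times mean transcript length gave whole read pairs, within 0.05, for 98.9% to 99.5% of values under 50 read pairs. Genes averaging 1 FPKM or more were tested in R 4.3.3 with limma 3.58.1 (limma-trend, log2(FPKM + 1), pseudocount 1, two-sided, Benjamini-Hochberg, threshold 0.05), tested first on simulated data. Fold differences are on that scale and understate changes of low genes. The members, gene lists and tests were chosen with earlier results of these data known. Named were the 3 highest members of each type, the 4 largest differences in each direction, Fth1, Slbp, Npat, Casp8ap2, called list genes and 9 fixed members. Alternatives were pseudocounts, filters, scalings, limma settings, covariates, a replicate block, limma-voom on read pairs and each library left out. Sums over members and sequence matches carry no test. A called gene of the HSC marker list is not reported here.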

Additional observations from a re-analysis of the deposited data

Results flagged for a closer look

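The 4 Fth1-deleted values were examined in 34 sets: the FPKM of 23 named genes and 11 sums, counts and shares. In 6 of these, 1 library lay far from the other 3 by Dixon's 95% limit, which chance passes in about 1 of 20 sets of normally distributed values. These were Hist1h1e (0 FPKM in Fth1-deleted 2, the low one), Hist1h2ap (4.42 FPKM in Fth1-deleted 2), Hist1h3a (20.4 FPKM in Fth1-deleted 1), Hist1h3f (1.18 FPKM in Fth1-deleted 1), Hist1h3i (17.6 FPKM in Fth1-deleted 1) and Hist1h4j (2.82 FPKM in Fth1-deleted 3). In Hist1h3f, Hist1h3i and Hist1h4j the other 3 libraries were at 0, so any value above 0 passes the limit. With so many values at 0, the rate of 1 in 20 does not hold for single histone genes. The summed FPKM of each histone type, the number of genes above 0 and the ribosomal RNA share held no such library. Of the 29 histone genes outside the naming rule, 10 held such a library by the same limit.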

How the results depend on the processing

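No histone gene was called in any of the 20 alternatives, and the median log2 difference of the tested histone genes stayed above 0 in all of them (0.30 to 1.69, the highest with the ribosomal RNA share as covariate). The smallest adjusted p of a histone gene was 0.0548, for Hist1h4i without control replicate 3. The 8 genes called over all tested genes became 0 without a filter, 17 without a trend, 28 with the ribosomal RNA covariate, 17 with a term for Y-linked reads, 5 by limma-voom and 0 to 19 with 1 library left out. With the replicate block 0 genes were called and the median of the histone genes was 0.37. The ribosomal RNA share did not overlap between the groups, so the fit with it as covariate cannot separate share from deletion. Same-numbered libraries deviated with correlations of 0.009, 0.061 and -0.037. These values cannot show whether such libraries were prepared together, which the labels do not state. The difference in ribosomal RNA share (0.919 percentage points) ranged from 0.744 to 1.26 with 1 library left out (exact permutation p 0.0667 to 0.1, the smallest those designs allow). The ratio of summed FPKM ranged from 1.23 without control 2 to 2.60 without control 1.

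Of 405 log2 differences of 21 named genes, 363 kept their direction and 42 turned, all of uncalled genes. The cause was not tested. The values were as follows. At a pseudocount of 0.1, Hist1h2ap was 0.23 and Hist1h4h 0.72. With quantile normalization Hist1h4h was 0.0303. With library weights Hist1h3i was 0.14 and Hist1h4h 0.0222. With the replicate block Hist1h3i was 0.0213 and Hist1h4k -0.25. With the ribosomal RNA covariate Hist1h2ai was 0.29, Hist1h2ap 0.86, Hist1h3e 2.53, Hist1h3f 0.69, Hist1h3i 1.96, Hist1h4j 0.98 and Hist2h2be -1.16. With the Y-linked term Hist1h3e was 0.29, Hist1h4h 0.30 and Hist2h2be -0.16. By limma-voom Hist1h2ap was 0.26 and Hist1h4h 0.70. With 1 library left out, Hist1h1b ranged from -0.11 to 1.85, Hist1h1e from -0.0409 to 2.00, Hist1h2ap from -0.74 to 0.0694, Hist1h2bn from -0.82 to 1.43, Hist1h3a from -0.91 to 1.22, Hist1h3e from -1.71 to 0.19, Hist1h3i from -1.39 to 1.05, Hist1h4h from -1.53 to 1.18, Hist1h4k from -1.23 to 1.19, Hist2h2be from -0.20 to 0.69 and Hist3h2ba from -1.63 to 0.30. The 7 genes that never turned ranged more than 1.5 times over the alternatives: Hist1h1c from 0.0778 to 1.27, Hist1h2ae from 0.106 to 2.12, Hist1h2ao from 0.87 to 4.30, Hist1h2bb from 1.31 to 5.10, Hist1h2bc from 0.37 to 2.59, Hist1h4i from 1.62 to 3.37 and Hist1h4m from 1.27 to 4.46.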
